A study of Homo sapiens with 8 samples.

Results

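The genes described here encode large, medium and small subunits of the clathrin adaptor complexes AP-1, AP-2 and AP-3. They were taken by name from a set of 10 genes, of which 9 had rows in the deposited files and AP2A2 was not analysed here. The 9 genes held 150 introns of the 142224 listed and were 9 of the 15902 listed genes. The family was chosen by the intronic reads of AP2S1, which were high after drug treatment, so the AP2S1 values with drug are given as a description, with no test, and AP2S1 is left out of the counts of members that changed with drug. The other 8 members were AP2A1, AP2B1, AP2M1, AP1G1, AP1M1, AP1B1, AP3D1 and AP3B1.

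SUM159 is an established human line from a triple-negative breast cancer with mesenchymal features. All cells were of this line, with no genetic change named, and were kept for 12 h either with H3B-8800 or with its vehicle, dimethyl sulfoxide (DMSO). H3B-8800 is a small molecule that binds SF3b, the part of the spliceosome that recognises the branch point near the 3′ end of an intron. Polyadenylated RNA was sequenced either without enrichment (input) or after pull-down of double-stranded RNA with the J2 antibody, so that there were 4 groups, with 2 biological replicates for each kind of RNA and treatment. An immunoprecipitation with a control antibody was not analysed here, so J2 values are not corrected for RNA that binds unspecifically.

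Clathrin adaptors are assemblies of a pair of large subunits, a medium subunit and a small subunit that link cargo receptors in a membrane to the clathrin coat. AP-2 works in endocytosis at the plasma membrane, AP-1 in sorting between the trans-Golgi network and endosomes, and AP-3 in transport to lysosomes and related organelles. Removing an intron requires the spliceosome to recognise the 5′ splice site, the branch point and the 3′ splice site, and a transcript whose intron is not removed carries intron sequence in its polyadenylated RNA.

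Library depth was 47000000 to 57000000 reads. For each intron the files gave reads inside the intron (intronic reads) and, by difference of 2 deposited columns, reads that join its flanking exons (spliced reads). The intronic share is intronic reads as a percent of intronic plus spliced reads, and RPM is reads per 1000000 reads of depth. The share is not corrected for intron length, and a shorter intron has fewer positions for intronic reads. Its size is therefore not directly comparable between introns of different length. A gene's spliced RPM is summed over its listed introns and so is not compared between genes. Over all listed introns the intronic share was 3.63% to 3.98% in the 4 vehicle libraries, 10.26% and 13.03% in input with drug, and 12.54% and 12.96% in J2 with drug. Replicates differed more in J2 with drug than elsewhere, with a chi-square per gene of 21.8 against 3.43 to 5.82 in the other groups. The tests used a common estimate of the spread for all groups. Standard errors and p-values of comparisons that involve J2 with drug may therefore be too small. Of 6 mesenchymal markers, spliced RPM by group was 464 to 639 for VIM, 152 to 269 for AXL, 8.50 to 54.5 for FN1, 7.06 to 21.5 for CD44, 9.98 to 17.3 for CDH2 and 0.0909 to 0.788 for ZEB1. The luminal epithelial markers KRT8 (86.0 to 123), KRT18 (71.8 to 124) and GATA3 (1.67 to 2.24) were also detected, EPCAM and CDH1 were at 0.0455 RPM or below, and ESR1 was at 0. Of the immune markers, CD3E was at 0 and CD14 at 0.0388 to 0.145.

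AP2S1 encodes the small sigma subunit of AP-2, and its 1 listed intron is the last of 4 (chr19:46838549-46838739, minus strand, 191 bases, between coding exons). The spliced junction is shown because it is the message that this intron interrupts. It is given from the GENCODE 29 transcript AP2S1-202 (GRCh38) as the 20 exon bases on each side (chr19:46838740-46838759, then chr19:46838529-46838548), and the capitals mark the last 3 exon bases before the junction.
AP2S1 junction 4: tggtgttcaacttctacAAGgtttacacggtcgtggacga

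This intron had 0 and 0 intronic reads in the input libraries with vehicle and 326 and 346 in those with drug. In J2 RNA the counts were 1 and 0 with vehicle and 531 and 607 with drug. The intronic share of AP2S1 was therefore 36.7% and 34.9% in input with drug and 38.2% and 34.2% in J2 with drug. Against a floor of 3 counts over the vehicle group, the input value with drug was at least 233-fold higher, and 0 of 998 reads allows a vehicle share of up to 0.301%. In J2 RNA the ratio of drug to vehicle was 1215, with a 95% counting interval of 217.7 to 48045. These limits and intervals cover counting error only. They come from the values taken to lie behind the choice of the family, so they test nothing. AP2S1 spliced reads did not go down beside this. They were 519 and 479 with vehicle and 562 and 644 with drug in the input, and 700 and 816 with vehicle and 859 and 1168 with drug in J2 RNA. The drug libraries lay above the vehicle libraries in both kinds of RNA.

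Intron ends are printed for members whose introns went different ways with drug, because SF3b acts near the 3′ end. They come from GENCODE 29 transcripts on GRCh38 that keep or extend into the intron. Each 5′ line gives 3 exon bases and 12 intron bases with the first 2 intron bases in capitals, and each 3′ line gives the last 40 intron bases and 3 exon bases with the last 2 intron bases in capitals. All of these introns lie between coding exons.
AP3D1 intron 27 (chr19:2109208-2109872, minus strand), 5′: cagGTggggcccagg
AP3D1 intron 27, 3′: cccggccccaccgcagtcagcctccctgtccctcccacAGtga
AP3D1 intron 23 (chr19:2111333-2111678, minus strand), 5′: ccgGTgaggggtact
AP3D1 intron 23, 3′: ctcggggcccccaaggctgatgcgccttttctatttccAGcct
AP3D1 intron 28 (chr19:2108767-2109085, minus strand), 3′: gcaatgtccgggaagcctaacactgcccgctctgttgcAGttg
AP1M1 intron 4 (chr19:16208150-16209029, plus strand), 5′: ggaGTgagtgggcag
AP1M1 intron 4, 3′: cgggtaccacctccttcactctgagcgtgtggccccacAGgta
AP2A1 intron 22 (chr19:49806254-49806680, plus strand), 5′: cagGTgagtgctgct
AP2A1 intron 22, 3′: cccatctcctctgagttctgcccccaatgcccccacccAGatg
AP2A1 intron 18 (chr19:49803377-49805452, plus strand), 5′: ctcATatcctctcag
AP2A1 intron 18, 3′: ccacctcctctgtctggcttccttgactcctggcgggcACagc
AP2A1 intron 13 (chr19:49801622-49801721, plus strand), 5′: ctgGTcagagccctg
AP2A1 intron 13, 3′: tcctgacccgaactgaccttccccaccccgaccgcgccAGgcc
AP2M1 intron 8 (chr3:184180985-184181084, plus strand), 5′: aagGTgaggtccctc
AP2M1 intron 8, 3′: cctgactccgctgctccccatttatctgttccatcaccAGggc

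Intron 27 of AP3D1 and intron 22 of AP2A1 took up many intronic reads with drug, as given below with their counts, while intron 13 of AP2A1 and intron 8 of AP2M1 took up almost none. Intron 18 of AP2A1 begins with AT and ends with AC, ends that are typical of introns removed by the minor spliceosome. The last 40 bases of AP2A1 intron 22 and of AP2M1 intron 8 both held 29 pyrimidines, although the pooled intronic share with drug in the input was 50.9% for the first and 0.149% for the second. The first has 427 bases and the second 100, and the share is not corrected for length. Of the 88 introns with enough reads, 23 had a 3′ end inside another transcript of the same gene, and only these could be read. AP2S1 intron 4, AP3D1 intron 5 and AP1B1 intron 7 were not among them. The pyrimidine count was 22 to 30 (median 25) in the 11 of the 23 whose share rose by at least 10 points. It was 21 to 31 (median 25.5) in the other 12. The ranges overlapped almost fully in this subset, and a relation between the 3′ end and the change was not tested.

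The first question was what the drug did to intron reads of these genes in the input. Of the 8 members other than AP2S1, AP3D1, AP3B1, AP1B1 and AP1M1 had the largest rises in intronic share, to 55.6%, 57.3%, 42.0% and 22.8% on average. AP2A1 rose from 0.978% to 10.3% and AP2M1 from 0.532% to 2.05%. Intronic reads of all 8 members rose with the depth of the libraries as scale, where 51.7% of all 8204 genes tested rose and 4.10% fell (edgeR quasi-likelihood test, Benjamini-Hochberg adjusted p under 0.05). With TMM scaling 5 members rose and AP2B1 fell (-0.64 on the log2 scale), while of all genes 2121 rose and 1463 fell. The median log2 change was 1.99 over the 8 members and 1.27 over all genes, and scaling by TMM moved the latter to 0.09, so a change near 1.27 is close to that of the median gene. In bulk RNA, fewer cells with a transcript and less of it per cell cannot be told apart.

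**Figure D1:**
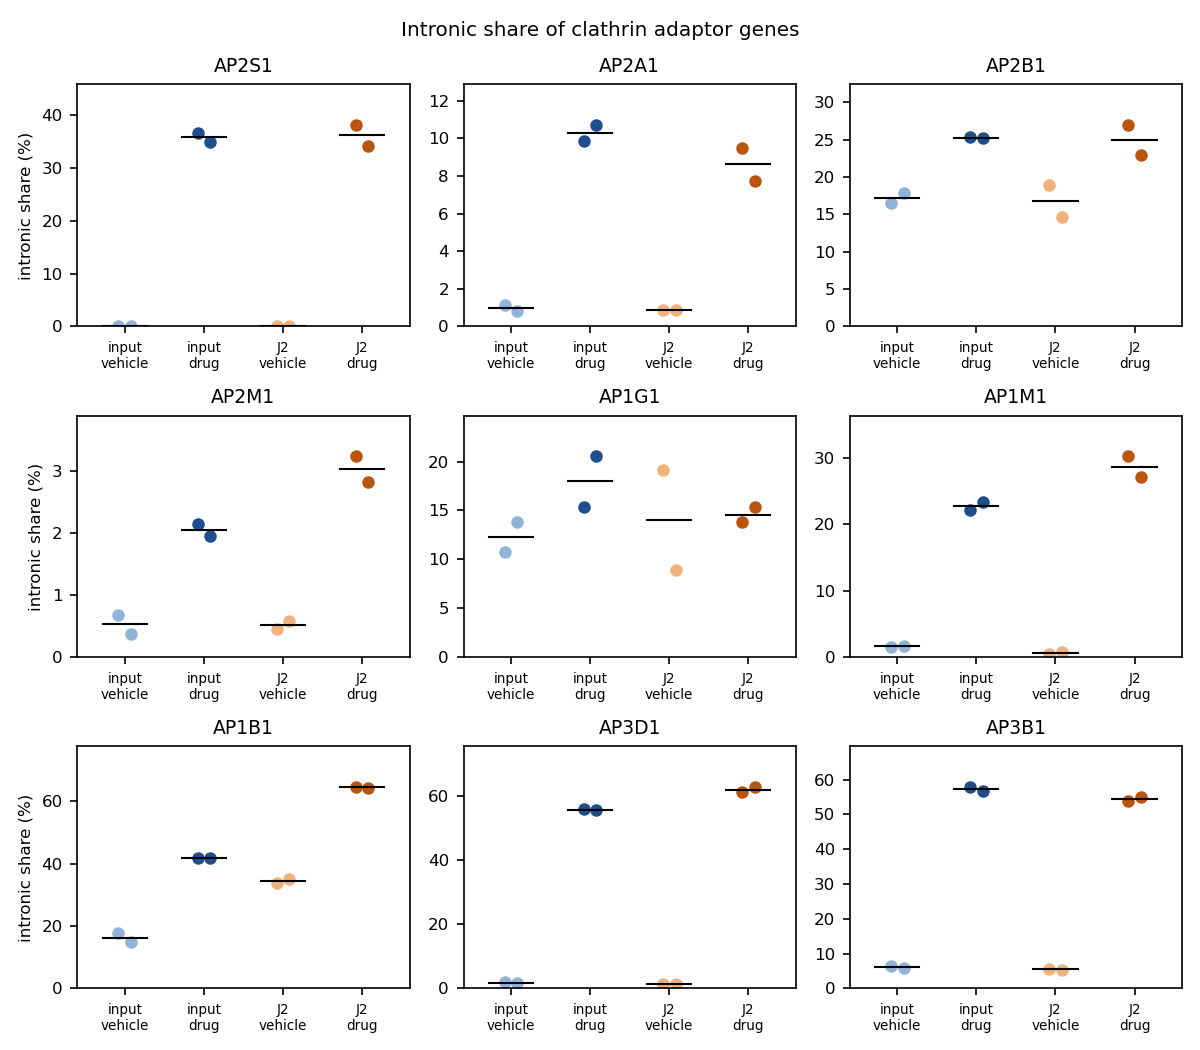
Intronic share of each adaptor gene (percent of intronic plus spliced reads, vertical axis) in each of the 8 libraries, with 1 panel per gene, 1 point per library and a bar at the mean of each group. AP3D1 and AP3B1 lie at 53.7% to 62.7% with drug and at 6.53% or below with vehicle, while AP2M1 stays at 3.24% or below throughout.

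Among AP-2 genes, AP2A1 encodes a large alpha subunit, which binds membrane lipids and recruits accessory proteins. Its intronic share was 1.13% and 0.827% with vehicle and 9.88% and 10.7% with drug in the input. Its intronic RPM rose 2.53-fold (log2 change 1.34 ± 0.25 SE, edgeR adjusted p = 1.09e-06), which is close to the median gene. The ratio of intronic to spliced reads rose more, by 3.54 ± 0.22 on the log2 scale (limma, adjusted p = 2.29e-09), because spliced reads went down as given below. Intron 22 carried 43.1% of the AP2A1 intronic reads with drug. It had 3 and 6 intronic beside 405 and 393 spliced reads with vehicle, and 48 and 71 beside 56 and 59 with drug. Intron 18, the AT to AC intron, had 12 and 13 beside 272 and 278 with vehicle and 14 and 23 beside 55 and 80 with drug, so its share went from 4.35% to 21.5% while its intronic reads changed little. Intron 5 (chr19:49792065-49792990) had no intronic read in any library, which with 0 of 141 reads in input with drug allows a share of up to 2.13%.

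AP2B1 encodes the beta subunit of AP-2, whose hinge binds clathrin, and AP2M1 the mu subunit, which binds tyrosine-based sorting signals. The AP2B1 share was 16.5% and 17.8% with vehicle and 25.3% and 25.2% with drug. The 2 groups did not overlap. The AP2B1 ratio rose by 0.71 ± 0.18 (limma adjusted p = 0.00385), less than the median log2 change of 1.69 over all genes. Intron 1, which holds alternative exons of AP2B1 itself, carried 87.7% of these intronic reads with drug, and its share was 49.9% with vehicle and 54.6% with drug. Intron 2, which overlaps an exon of the pseudogene AC004134.1 on the other strand, had the largest rise of the AP2B1 introns with enough reads, from 7.50% to 18.3%. For AP2M1 the share was 0.685% and 0.379% with vehicle and 2.15% and 1.95% with drug. Its intronic RPM rose 4.94-fold (log2 change 2.31 ± 0.23 SE, edgeR adjusted p = 1.2e-16), yet AP2M1 remained the member with the lowest share in input with drug. Its last intron, 13 (chr3:184182869-184183481), had 33 and 22 intronic reads with vehicle and 87 and 114 with drug beside 948 to 1413 spliced reads. Intron 8 had 1 and 0 beside 1588 and 1699 spliced reads with vehicle and 3 and 3 beside 1951 and 2073 with drug.

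AP-1 has AP1G1 as its large gamma subunit, AP1B1 as its beta subunit and AP1M1 as a medium subunit. AP1M1 intronic shares were 1.62% and 1.64% with vehicle and 22.2% and 23.4% with drug, and its intronic RPM rose 12.3-fold (log2 change 3.61 ± 0.21 SE, edgeR adjusted p = 2.23e-31). Intron 4 of AP1M1 held 60.8% of those reads with drug. Its intronic reads went from 3 and 13 to 205 and 254, and its spliced reads from 208 and 240 to 138 and 172. Intron 3 of the same gene (chr19:16206409-16208018) had none with either treatment in the input, and 0 of 159 reads with drug allows a share of up to 1.89%. AP1M1 introns thus differed widely within 1 transcript.

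AP1B1 shares were 17.7% and 14.8% with vehicle and 41.9% and 42.0% with drug (intronic log2 change 1.68 ± 0.11 SE, edgeR adjusted p = 7.09e-28). Intron 17 (chr22:29331917-29334264, minus strand) holds the small RNA genes MIR3653 and SNORD125 on the same strand, and reads of those genes cannot be told apart from intron reads. It gave 84.6% of the AP1B1 intronic reads in input with drug, with 386 and 353 intronic reads with vehicle and 929 and 1111 with drug. Intron 7 (chr22:29351826-29354649) holds no other gene's exon and had the largest rise in share. It had 6 and 6 intronic beside 63 and 59 spliced reads with vehicle, and 97 and 107 beside 37 and 53 with drug. Intron 10 of AP1B1 (chr22:29349384-29350034) had no intronic read in any library, and 0 of 176 reads in input with drug allows a share of up to 1.70%. AP1G1 had few reads, and 1 of its 21 listed introns reached 20 reads in every library. This was intron 1 (chr16:71789483-71808762), with a pooled share of 23.4% with vehicle and 25.3% with drug in the input. The AP1G1 share was 10.8% and 13.8% with vehicle and 15.3% and 20.6% with drug. Its intronic reads rose (log2 change 1.24 ± 0.39 SE, edgeR adjusted p = 0.00475), but leaving out input vehicle replicate 1 raised the adjusted p to 0.0898, and leaving out input drug replicate 2 raised it to 0.101. The change of the AP1G1 ratio was 0.61 ± 0.47 (limma adjusted p = 0.268), with a 95% interval of -0.30 to 1.53. That interval uses the normal distribution and is narrower than one from the t distribution of the limma test. The ratio rose in the other 7 of the 8 members, beside 59.8% of all genes that rose and 2.24% that fell. Its median log2 change was 2.77 over the 8 members and 1.69 over all genes.

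AP3D1, the large delta subunit of AP-3, had the largest rise of the 8 tested members in intronic RPM. It had 3.15 and 2.76 intronic RPM with vehicle and 44.3 and 49.7 with drug in the input, a 15.9-fold rise (log2 change 3.99 ± 0.12 SE, edgeR adjusted p = 4.4e-55). Its share went from 1.91% and 1.67% to 55.8% and 55.5%. The replicates lay close together in both groups. Intron 5 (chr19:2130538-2132470) had the largest change of any member intron with enough reads. Its intronic reads went from 15 and 16 to 559 and 723 and its spliced reads from 237 and 210 to 45 and 50, a pooled share of 6.49% with vehicle and 93.1% with drug. Intron 27 went from 19 and 33 intronic beside 166 and 154 spliced reads to 357 and 338 beside 25 and 44. Intron 13 (chr19:2121093-2121162), the shortest AP3D1 intron with 70 bases, had no intronic read in the input with vehicle or with drug, and 0 of 161 reads with drug allows up to 1.86%. Intron 28 went the other way, from 17 and 9 intronic beside 130 and 129 spliced reads to 0 and 0 beside 55 and 79. With drug, 0 of 134 reads allows a share of up to 2.24%, against 9.12% with vehicle. The fall passed the test on the ratio (limma log2 change -2.78 ± 0.66, adjusted p = 0.00663). In J2 RNA the share of this intron was 3.04% with vehicle and 5.14% with drug, with no fall.

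AP3B1 encodes a beta subunit of AP-3 that is needed for normal lysosome-related organelles. Its share went from 6.53% and 5.86% to 57.9% and 56.7% in the input (intronic log2 change 3.54 ± 0.24 SE, edgeR adjusted p = 2.72e-26). A single intron made up most of this. Intron 11 (chr5:78165673-78175625, 9953 bases) held 92.3% of the AP3B1 intronic reads with drug, although it fell short of 20 reads in some J2 libraries with vehicle. It had 14 and 20 intronic reads beside 7 and 9 spliced reads with vehicle, and 286 and 253 beside 2 and 0 with drug. Intron 18 (chr5:78113924-78116125) had no intronic read in any of the 8 libraries beside 30 to 85 spliced reads.

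**Figure D2:**
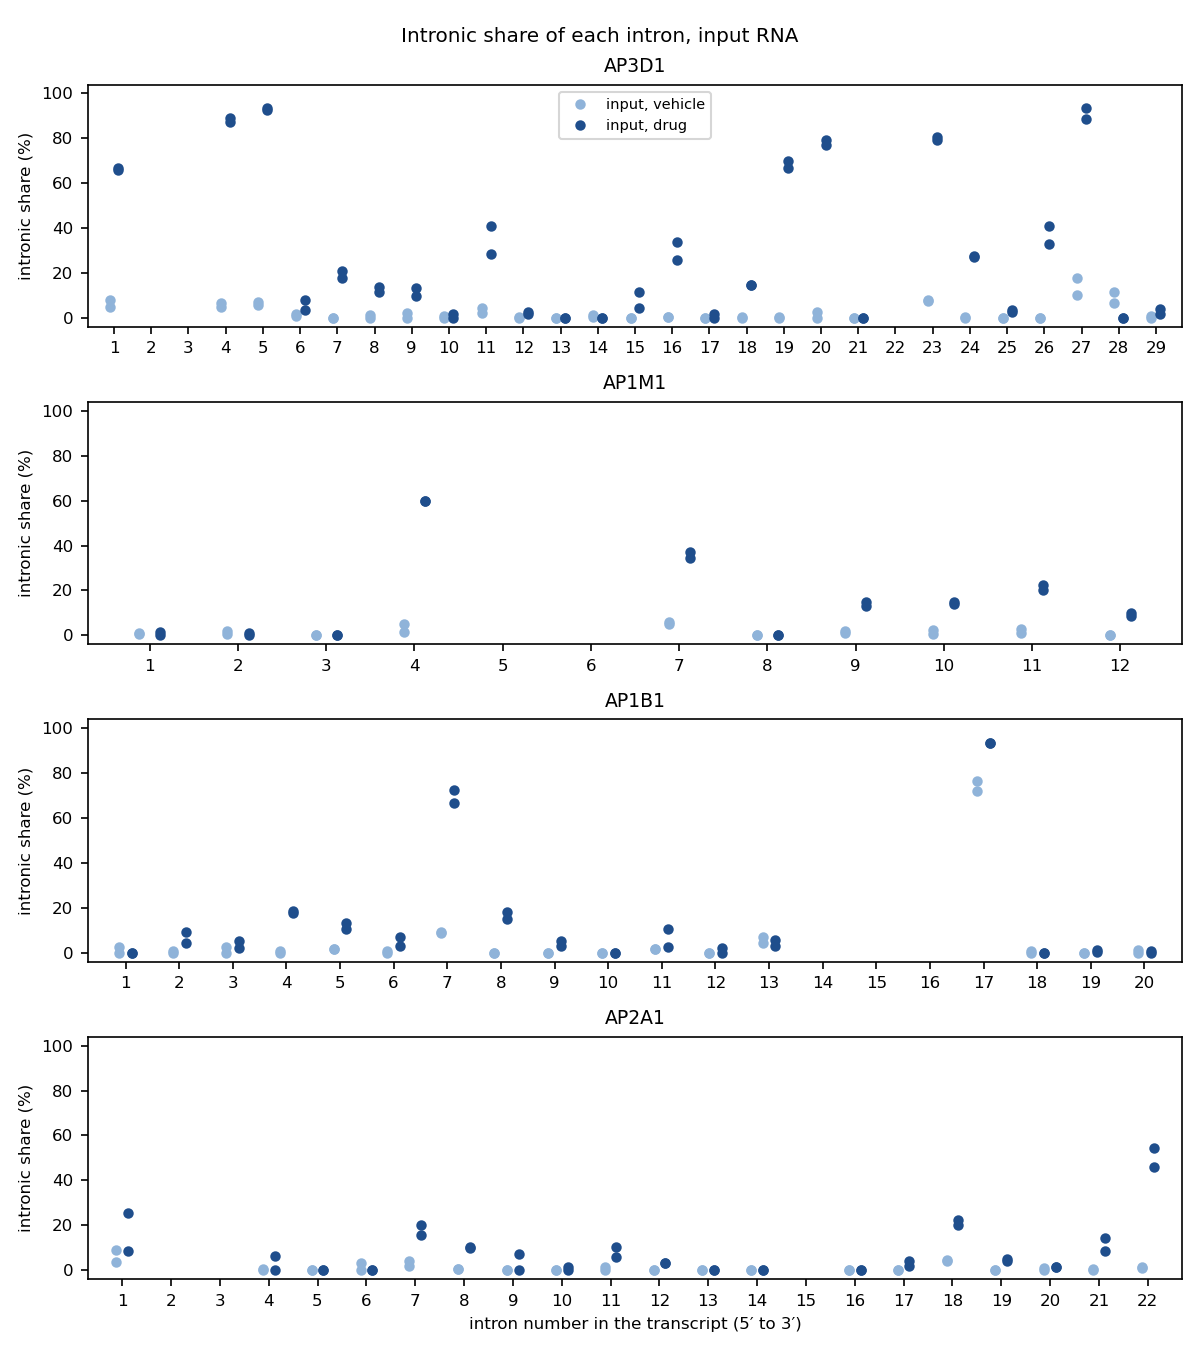
Intronic share (percent, vertical axis) of each intron with at least 20 reads in every library, in transcript order (horizontal axis), for AP3D1, AP1M1, AP1B1 and AP2A1 in the input, with 1 point per library and vehicle and drug in different colours. Introns near 0% with drug stand beside introns above 50%, such as AP3D1 introns 13 (0%, 70 bases) and 5 (93.1% pooled, 1933 bases). The share is not corrected for intron length.

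Per intron, 87 introns of the 8 members had at least 20 reads in every library, and the pooled share of 31 of them rose by at least 10 points in the input, where 23.7% of 30261 such introns of all genes did. AP3D1 had 15 of the 31, and AP2A1, AP1M1 and AP1B1 had 5 each. By the limma test on the ratio, 62 of 90 introns rose and 2 fell, beside 46.9% and 4.13% of 29365 introns of all genes. Of the rises, 20 came from introns with fewer than 10 intronic reads over both drug libraries. These include introns with none, where the ratio rises because spliced reads fell. AP3D1 had 26 rises and 1 fall of 28 introns tested, although 4 of its introns had no intronic read in input with drug. AP2B1 intron 15 was called a fall with no intronic read in any library, where the ratio moves with the spliced reads alone, and 1 member intron fell without input vehicle replicate 1. A test of intronic reads with intronic plus spliced reads as offset, chosen after the data were seen, gave 45 rises and 1 fall of 84, beside 37.4% and 1.30% of all introns. Of the 45, AP3D1 had 20, AP2A1 7, AP1M1 6, AP1B1 6 and AP2M1 4. Across the 88 introns with enough reads, AP2S1 included, the change in share had a Spearman correlation with intron length of 0.074 in the input and 0.019 in J2 RNA, as a description over introns that share 9 transcripts and the same libraries.

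Spliced reads moved in both directions. In the input 4 members fell (AP2A1, AP3D1, AP3B1 and AP1M1) and 2 rose (AP2M1 and AP1G1), where 48.2% of 8248 genes fell and 21.9% rose (edgeR). With TMM scaling 3110 genes rose and 2802 fell. The median log2 change was -0.38 over the 8 members and -0.36 over all genes. The largest falls were those of AP2A1 and AP3D1, a large subunit each of AP-2 and AP-3. AP2A1 had 117 and 115 spliced RPM with vehicle and 24.9 and 25.7 with drug, 4.59-fold less (log2 change -2.20 ± 0.06 SE, edgeR adjusted p = 5.63e-09). For AP3D1 the values were 162 and 163 with vehicle and 35.2 and 39.8 with drug, 4.32-fold less (-2.11 ± 0.06, edgeR adjusted p = 7.8e-09). The drug libraries of both genes lay far under the vehicle libraries. The fall was spread over the AP2A1 junctions, whose spliced reads per depth with drug were 0.150 to 0.309 of those with vehicle over its listed introns. In AP3D1 this ratio was 0.119 to 0.539.

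AP3B1 spliced reads went from 7.75 and 8.20 RPM to 4.64 and 4.52 (log2 change -0.80 ± 0.17 SE, edgeR adjusted p = 0.00213), and AP1M1 from 39.2 and 38.9 to 26.0 and 27.7 (-0.54 ± 0.06, edgeR adjusted p = 3.83e-05). The AP1M1 fall did not pass with TMM scaling (-0.13, adjusted p = 0.0669), and with DESeq2 2 members fell. AP2M1 went from 181 and 175 to 218 and 236 RPM (0.35 ± 0.06, edgeR adjusted p = 0.000501). AP1G1 had 3.62 and 3.92 RPM with vehicle and 5.87 and 5.62 with drug (0.61 ± 0.18, edgeR adjusted p = 0.0134). The AP1G1 rise did not pass without input drug replicate 1 (adjusted p = 0.0636) or input vehicle replicate 1 (adjusted p = 0.0853), which left 1 member that rose. AP2B1 (23.8 and 23.0 with vehicle, 20.4 and 21.6 with drug) and AP1B1 (39.7 and 42.2, then 32.4 and 37.7) did not pass, at edgeR adjusted p = 0.379 and 0.0564. The AP1B1 change was -0.34 (adjusted p = 0.0223) when input drug replicate 2 was left out. Within AP-2, the alpha subunit gene thus lost spliced reads while the mu subunit gene gained some.

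**Figure D3:**
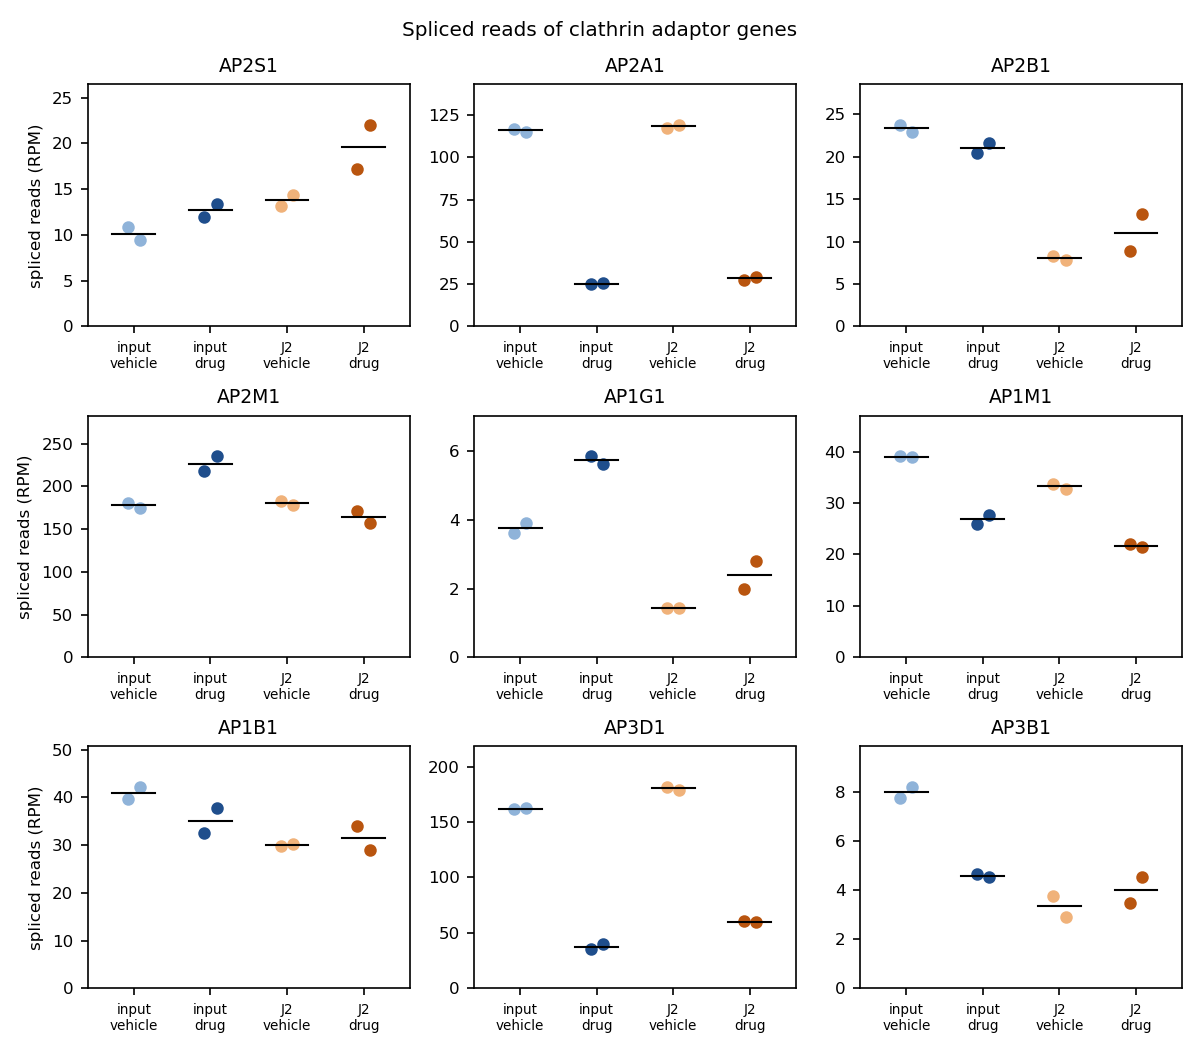
Spliced reads of each adaptor gene summed over its listed introns (RPM, linear axis from 0 with its own range in each panel), with 1 point per library and a bar at the mean of each group. AP2A1 falls from 115 to 117 with vehicle to 24.9 to 25.7 with drug in the input, while AP2M1 goes from 175 to 181 up to 218 to 236.

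In J2 RNA the same question was asked with the J2 libraries alone. Intronic reads of 7 of the 8 members rose, beside 59.5% of 8204 genes that rose and 3.82% that fell (edgeR), with AP1G1 at a log2 change of 0.80 ± 0.48 (edgeR adjusted p = 0.137, but 0.0285 without J2 vehicle replicate 1). With TMM scaling 4 members rose and AP2B1 fell (-0.52), AP2A1 had a log2 change of -0.31, and of all genes 2202 rose and 1744 fell. The all-gene median was 1.76 on the depth scale and 0.11 with TMM. AP3D1 intronic reads were 2.53 and 2.39 RPM with vehicle and 94.2 and 100.3 with drug, 39.6-fold more (log2 change 5.31 ± 0.13 SE, edgeR adjusted p = 3.6e-65). AP1M1 had 0.151 and 0.281 RPM with vehicle and 9.56 and 7.94 with drug, 40.6-fold more (5.31 ± 0.24, edgeR adjusted p = 1.05e-39). For AP3B1 the values were 0.226 and 0.158 with vehicle and 4.04 and 5.55 with drug (4.63 ± 0.28, edgeR adjusted p = 9.1e-30). These 3 genes stood well above the median gene in J2 RNA, as in the input. The ratio of intronic to spliced reads rose in 7 of the 8 members, beside 58.7% of all genes that rose and 4.92% that fell. Its median log2 change was 2.99 over the 8 members and 1.67 over all genes. AP1G1 again did not pass (0.12 ± 0.47, limma adjusted p = 0.841).

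The shares of single introns in J2 RNA had much the same order as in the input. Over the 88 introns the changes in input and in J2 RNA had a Spearman correlation of 0.895, a description with no test. AP3D1 intron 5 went from 3 and 12 intronic beside 313 and 328 spliced reads to 892 and 1099 beside 40 and 59. AP1M1 intron 4 went from 0 and 1 beside 179 and 227 to 346 and 281 beside 117 and 131. Both are the introns with the largest rise of their genes in the input too. AP1B1 intron 7 went from 10.2% to 82.1% and AP2A1 intron 22 from 0.929% to 32.6%. AP2M1 intron 13 rose from 2.79% to 14.7%, and AP2B1 intron 2 from 10.7% to 34.2%. A rise of at least 10 points was seen in 28 of the 87 introns, beside 22.5% of all such introns, and the offset test called 43 rises of 84, beside 38.5% that rose and 1.57% that fell of all introns. The limma test on the ratio called 66 rises of 90, beside 48.1% that rose and 6% that fell of all introns, with 25 of the rises under 10 intronic reads with drug. AP3B1 had 3 of these rises in 3 introns tested, although its introns 18 and 19 had no intronic read in J2 RNA.

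For spliced reads in J2 RNA, 3 members fell and 2 rose, beside 39.5% and 34.5% of 8248 genes (edgeR). AP2A1 went from 117 and 119 RPM to 27.6 and 29.3 (log2 change -2.06 ± 0.06 SE, edgeR adjusted p = 9.61e-09), AP3D1 from 182 and 179 to 60.3 and 59.6 (-1.59 ± 0.06, edgeR adjusted p = 3e-08) and AP1M1 from 33.7 and 32.7 to 22.0 and 21.4 (-0.62 ± 0.06, edgeR adjusted p = 1.48e-05). These 3 also fell in the input. AP1G1 rose from 1.43 and 1.44 to 2.00 and 2.81 (0.74 ± 0.20, edgeR adjusted p = 0.00698). AP2B1 had 8.34 and 7.79 with vehicle and 8.88 and 13.2 with drug (0.46 ± 0.16, edgeR adjusted p = 0.0243). That rise rested on J2 drug replicate 2, without which the change was 0.14 (adjusted p = 0.251), and it also failed without J2 vehicle replicate 1 (0.0635) or 2 (0.119), leaving 1 member that rose in each case. AP2M1 (183 and 178, then 171 and 157), AP1B1 (29.9 and 30.2, then 33.9 and 28.96) and AP3B1 (3.77 and 2.89, then 3.48 and 4.53) did not pass. Without J2 drug replicate 1, AP2M1 (-0.20, adjusted p = 0.0153) and AP3B1 (0.44, adjusted p = 0.0313) passed.

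**Figure D4:**
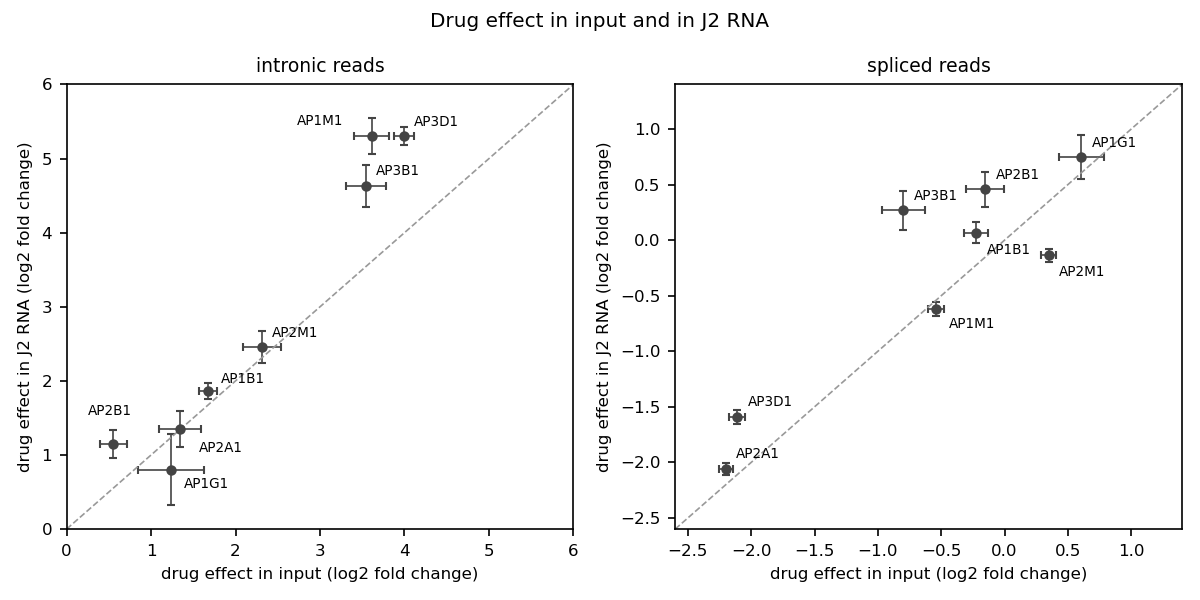
Drug effect (log2 fold change with its standard error) in the input (horizontal axis) and in J2 RNA (vertical axis) for the 8 tested members, for intronic and for spliced reads, with a dashed line where both are equal. AP1M1 and AP3D1 lie above the line for intronic reads (5.31 each in J2 RNA against 3.61 and 3.99), and AP3B1 lies above it for spliced reads (0.27 against -0.80).

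Whether the drug effect differed between J2 RNA and input was tested as an interaction. Intronic reads rose more in J2 RNA for 2 of 8 members, beside 13.7% of 8204 genes with a larger and 1.62% with a smaller effect (edgeR). With TMM scaling this balance over all genes turned to 383 larger and 456 smaller. The 2 members were AP1M1 (difference of log2 changes 1.70 ± 0.38 SE, edgeR adjusted p = 0.000429) and AP3D1 (1.31 ± 0.17, edgeR adjusted p = 8.93e-10). AP1M1 intronic reads were lower in J2 RNA than in input with vehicle (-1.56 ± 0.34, edgeR adjusted p = 0.000234). With drug, J2 RNA against input did not pass for AP1M1 (0.14 ± 0.15, edgeR adjusted p = 0.569). AP3D1 did not pass with vehicle (-0.27 ± 0.14, edgeR adjusted p = 0.152). It was higher in J2 RNA with drug (1.05 ± 0.10, edgeR adjusted p = 4.3e-16). AP3B1 had a difference of 1.09 ± 0.43 and did not pass (edgeR adjusted p = 0.0716, but 0.0447 without J2 drug replicate 1), and AP2B1 passed when J2 vehicle replicate 1 was left out (0.88, adjusted p = 0.0268). With DESeq2 the AP1M1 difference was 1.32 (adjusted p = 0.0506). The ratio of intronic to spliced reads gave the same 2 genes, AP1M1 at 1.78 ± 0.37 (limma adjusted p = 0.00833) and AP3D1 at 0.79 ± 0.15 (limma adjusted p = 0.00581), beside 5.37% of all genes with a higher and 4.56% with a lower ratio effect. Neither passed when the spread was modelled on total reads (adjusted p = 0.0655 and 0.0768), and AP1M1 also did not pass without input drug replicate 1 or J2 drug replicate 1 (adjusted p = 0.052 in both).

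Spliced reads gave 3 members with a more positive drug effect in J2 RNA and 1 with a more negative effect, beside 35.8% and 14.2% of 8248 genes. AP3B1 had the largest difference, 1.07 ± 0.25 (edgeR adjusted p = 0.00583), followed by AP2B1 at 0.61 ± 0.22 (edgeR adjusted p = 0.0408) and AP3D1 at 0.52 ± 0.09 (edgeR adjusted p = 0.000971). AP2M1 differed the other way, -0.49 ± 0.08 (edgeR adjusted p = 0.0013). AP2M1 is the member whose spliced reads rose in the input and were lower in both J2 drug libraries than in both J2 vehicle libraries. The AP2B1 difference did not pass without any single library other than J2 drug replicate 1 (adjusted p = 0.08 to 0.126), and with TMM scaling AP3B1 alone kept a positive call. That scaling also gave negative calls for AP1M1 (-0.41, adjusted p = 0.003) and AP2A1 (-0.19, adjusted p = 0.0474), AP1M1 also with median-of-ratios scaling and DESeq2, and turned the balance over all genes to 1755 positive and 2235 negative. AP1B1 passed without input drug replicate 2 (0.40, adjusted p = 0.0397) or J2 drug replicate 2 (0.40, adjusted p = 0.0145).

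The AP2B1 difference was not alike along the transcript. The junctions of AP2B1 introns 6, 13 and 15 were set apart after their values were seen, as those with more spliced reads with drug in the input and fewer in J2 RNA, so they are a description with no test. Intron 15 (chr17:35671901-35674175) had 193 and 167 spliced reads with vehicle and 285 and 336 with drug in the input, but 183 and 173 with vehicle and 82 and 83 with drug in J2 RNA. At intron 16, the next one, the counts were 29 and 23 with vehicle and 5 and 10 with drug in the input, and 5 and 5 with vehicle and 15 and 44 with drug in J2 RNA. Neighbouring junctions of 1 gene thus moved in opposite directions in both kinds of RNA. Summed, introns 6, 13 and 15 went from 5.87 ± 1.01 (SD, n = 2) to 9.58 ± 1.15 RPM in the input and from 4.95 ± 0.473 to 2.57 ± 0.0374 in J2 RNA. The other 16 junctions of AP2B1 went from 17.5 ± 0.436 to 11.4 ± 0.334 in the input and from 3.12 ± 0.0840 to 8.48 ± 3.11 in J2 RNA.

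AP3B1 had a like split, also set apart after seeing the values. Its introns 18 and 19 went from 2.45 ± 0.242 to 1.30 ± 0.0536 RPM (SD, n = 2) in J2 RNA, while its other 23 junctions went from 0.882 ± 0.380 to 2.70 ± 0.795. In the input those 23 AP3B1 junctions went from 5.16 ± 0.350 to 1.60 ± 0.0655 RPM, 3.23-fold less, whereas introns 18 and 19 stayed at 2.81 and 2.98. The AP3B1 sum over all introns, on which the tests above rest, mixes these sets of junctions. For AP1G1, intron 18, also set apart after seeing the values, went from 0.415 to 1.65 RPM in the input and from 0.492 to 0.340 in J2 RNA. The other 20 AP1G1 junctions went from 3.36 to 4.10 in the input and from 0.944 to 2.07 in J2 RNA.

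**Figure D5:**
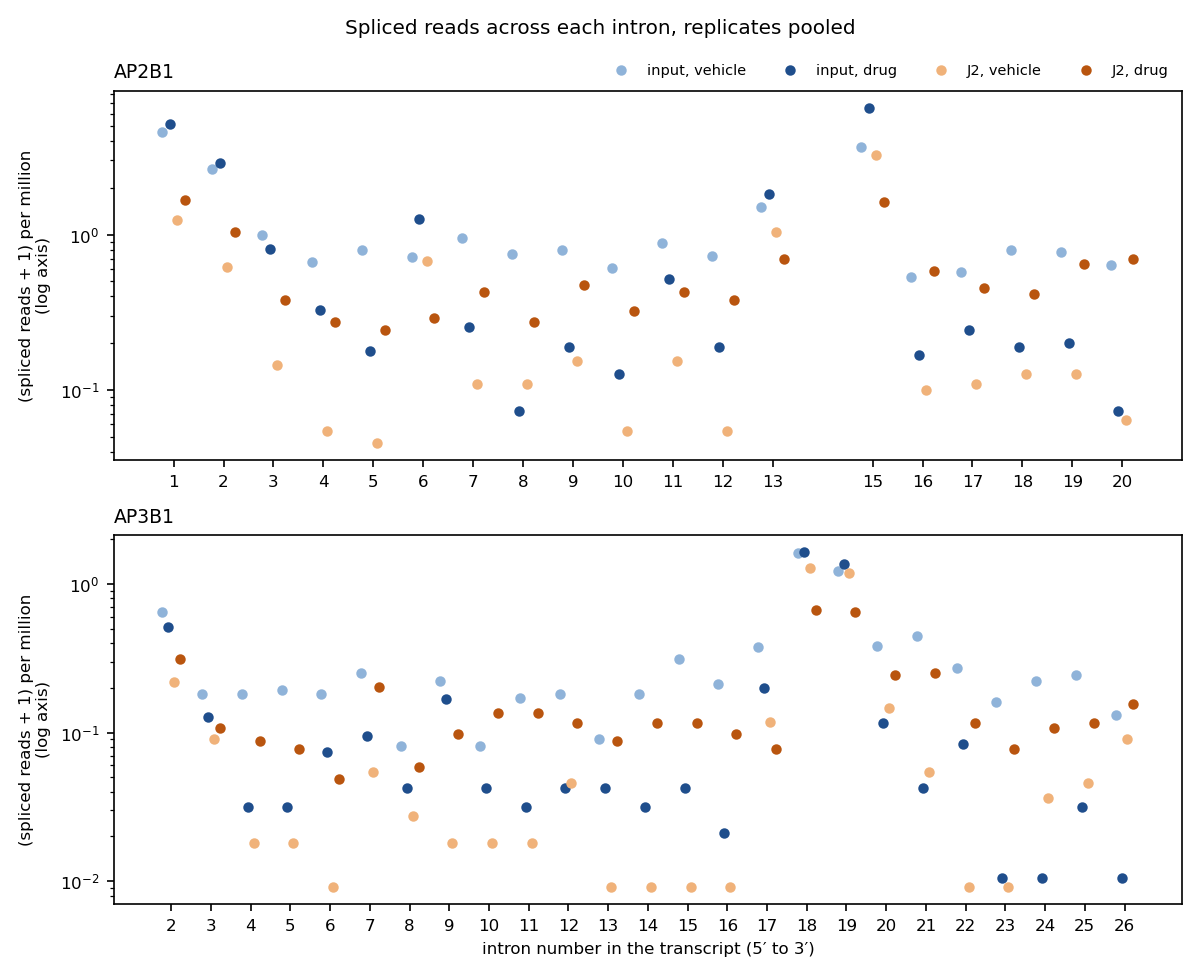
Spliced reads of each listed intron of AP2B1 and AP3B1 (reads plus 1, per 1000000 reads of depth, log axis) in transcript order, with the replicates of a group pooled and 1 colour per group. At AP2B1 introns 6, 13 and 15 and AP3B1 introns 18 and 19 J2 with drug lies below J2 with vehicle (sums of 2.57 against 4.95 and 1.30 against 2.45 RPM), unlike at most of their neighbours.

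J2 RNA was also compared with input under the same treatment, for vehicle with all 9 members. With vehicle, spliced reads of 5 members were lower and of 2 higher in J2 RNA, beside 43.8% and 16.6% of all genes (edgeR). The lower ones were AP2B1 (log2 difference -1.53 ± 0.16 SE, adjusted p = 3.61e-05), AP1G1 (-1.39 ± 0.20, adjusted p = 0.000249), AP3B1 (-1.26 ± 0.17, adjusted p = 0.000224), AP1B1 (-0.45 ± 0.09, adjusted p = 0.00256) and AP1M1 (-0.23 ± 0.06, adjusted p = 0.00948). AP2S1 (0.45 ± 0.13, adjusted p = 0.0167) and AP3D1 (0.16 ± 0.06, adjusted p = 0.0447) were higher. AP2A1 and AP2M1 did not pass. With TMM scaling 2721 genes were higher and 2404 lower. With TMM, median-of-ratios or DESeq2 scaling the members' count was 3 lower and 4 higher, AP1M1 turned to 0.07 to 0.13, and AP2A1 and AP2M1 were called higher. AP3D1 lost its call without any 1 of the 4 libraries (adjusted p = 0.123 to 0.169), and AP2S1 without input vehicle replicate 2 (0.121) or J2 vehicle replicate 2 (0.1), so 0 or 1 member was higher. AP1M1 did not pass without input vehicle replicate 1 (0.0623) or 2 (0.0578) or J2 vehicle replicate 2 (0.0722).

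With drug, spliced reads of 4 of the 8 members other than AP2S1 were lower and of 2 higher in J2 RNA, beside 27.6% and 28.4% of all genes. AP1G1 (-1.25 ± 0.19, edgeR adjusted p = 0.000343) and AP2B1 (-0.92 ± 0.15, edgeR adjusted p = 0.000679) were again lower, with AP2M1 (-0.47 ± 0.06, edgeR adjusted p = 0.000125) and AP1M1 (-0.31 ± 0.06, edgeR adjusted p = 0.00249). AP3D1 (0.68 ± 0.06, edgeR adjusted p = 1.4e-05) and AP2A1 (0.17 ± 0.06, edgeR adjusted p = 0.0253) were higher. AP2S1 had 12.0 and 13.4 spliced RPM in input and 17.2 and 22.0 in J2 RNA. AP2A1 lost its call without 4 of the libraries in turn (adjusted p = 0.0539 to 0.142). AP2B1 and AP1G1 had the lowest J2 values relative to input among the members under both treatments.

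Intronic reads with vehicle were lower in J2 RNA for AP2B1 (-1.57 ± 0.18, edgeR adjusted p = 1.5e-11), AP1M1 (-1.56 ± 0.34, edgeR adjusted p = 0.000234) and AP3B1 (-1.45 ± 0.39, edgeR adjusted p = 0.00262) and higher for AP1B1 (0.99 ± 0.11, edgeR adjusted p = 6.32e-13), 3 and 1 of the 9 members beside 20% and 3.91% of all genes. With TMM scaling 1005 genes were higher and 682 lower, and AP3B1 did not pass (-0.93, adjusted p = 0.0836), nor with median-of-ratios scaling (0.0847) or DESeq2 (0.16), where AP1M1 also did not (0.0588). AP3B1 also did not pass without J2 vehicle replicate 2 (0.056), and without replicate 1 AP1G1 passed (-1.91, adjusted p = 0.0227). The AP1B1 difference was 0.10 (adjusted p = 0.896) when introns that overlap another gene's exon, such as the one with MIR3653 and SNORD125, were left out. With drug, 2 of the 8 members other than AP2S1 were higher and 2 lower, beside 12.9% and 12.8% of all genes. AP1B1 (1.18 ± 0.10, edgeR adjusted p = 9.49e-19) and AP3D1 (1.05 ± 0.10, edgeR adjusted p = 4.3e-16) were higher, and AP2B1 (-0.97 ± 0.17, edgeR adjusted p = 1.19e-06) and AP1G1 (-1.59 ± 0.40, edgeR adjusted p = 0.00113) lower. Without such introns AP1B1 turned to -0.50 (adjusted p = 0.0855). AP1G1 did not pass without input drug replicate 2 (0.0564) or J2 drug replicate 1 (0.0538), which left 1 member lower.

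Clathrin chains and other adaptor subunits were a list of 22 genes, of which 13 were tested. In the input with drug, intronic reads of 5 rose and 1 fell (51.7% and 4.10% of all genes), and spliced reads of 2 rose and 7 fell (21.9% and 48.2%). The median log2 changes were 1.12 and -0.51, beside 1.27 and -0.36 over all genes. With TMM scaling the counts were 3 and 2 for intronic and 4 and 5 for spliced reads. AP5Z1, a large subunit of AP-5, went from 1.32 to 5.32 intronic RPM (log2 change 2.01 ± 0.19 SE, edgeR adjusted p = 5.97e-17) and from 24.5 to 6.77 spliced RPM (-1.86 ± 0.09, edgeR adjusted p = 7.84e-08). AP1G2, the other gamma subunit of AP-1, went from 16.9 to 3.73 spliced RPM (-2.18 ± 0.12, edgeR adjusted p = 2.19e-07), while AP1G1 rose as given above. For CLTC, the clathrin heavy chain, the drug effect on spliced reads differed by 2.02 ± 0.32 between J2 RNA and input (edgeR adjusted p = 0.000828), from 18.5 to 12.9 RPM in the input and from 2.65 to 7.51 ± 3.15 (SD, n = 2) in J2 RNA. The 1 fall of intronic reads was that of CLTB, a clathrin light chain (-1.08 ± 0.22, edgeR adjusted p = 6.3e-06), and all of its intronic reads lay in introns that overlap another gene's exon.

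Partners and cargo adaptors of clathrin-coated vesicles were a list of 42 genes, of which 37 were tested. In the input with drug, intronic reads of 24 rose and 2 fell (51.7% and 4.10% of all genes) and spliced reads of 4 rose and 24 fell (21.9% and 48.2%). The median log2 changes were 2.04 and -0.68, and with TMM scaling the counts were 18 and 5, and 8 and 16. In J2 RNA spliced reads of 11 rose and 15 fell (34.5% and 39.5% of all genes). The interaction on spliced reads was positive for 20 and negative for 2 (35.8% and 14.2% of all genes), and for 11 and 6 with TMM, where 1755 of all genes were positive and 2235 negative. EPS15, an endocytic scaffold protein, went from 3.54 to 1.10 spliced RPM in the input and from 1.04 to 3.40 in J2 RNA (interaction 3.39 ± 0.32, edgeR adjusted p = 9.33e-05). PICALM, which links clathrin to membranes, went from 15.3 to 4.95 and from 3.19 to 6.05 (2.55 ± 0.22, edgeR adjusted p = 6.25e-05). Of the members, AP3B1 (1.07), AP2B1 (0.61) and AP3D1 (0.52) had this direction with smaller values, and AP2M1 (-0.49) had the other. With TMM scaling neither AP2B1 (0.27, edgeR adjusted p = 0.279) nor AP3D1 (0.19, edgeR adjusted p = 0.0501) passed.

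The genes whose intronic share over the 8 libraries was most like that of AP2S1, by root mean square difference among 8180 genes with enough reads, were CLIP2 (1.18 points), LMNB2 (1.63), FOXP4 (2.07), DNPEP (2.11) and KRT7 (2.30). The ranking uses the AP2S1 values with drug that are taken to lie behind the choice of the family, so it is a description with no test. No other adaptor member was among these 5, which with 8180 genes compared says nothing about how members differ from AP2S1. The share is not corrected for intron length. CLIP2 had shares of 34.6% and 34.8% in input with drug and 0.850% and 1.45% with vehicle, over its 14 listed introns, where AP2S1 had 1.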

How the data were processed

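Polyadenylated RNA of SUM159 cells was sequenced in 8 libraries with a stranded kit, per the labels' protocols. Per the submitters' processing notes, HISAT2 2.0.4 was used, and hg38 and mm10 are listed as builds. The counting program and strand setting are not given in the sources used here. For 142224 introns the authors deposited an intronic read count, a second count that is never below it, and an RPKM, which equals the intronic count scaled to intron length and a round depth. That the excess of the second count is spliced reads was inferred from the values. Of the introns, 18 lack values and 142206 were used.

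Counts summed per gene were tested with edgeR 4.0.16 (quasi-likelihood, depth as library size), and log2((intronic + 1)/(spliced + 1)) per gene and intron with limma 3.58.1, in R 4.3.3. Each fit used the 8 libraries with a mean for each of 4 groups, kept features with a mean of at least 1 RPM, and adjusted p-values by Benjamini-Hochberg, with a threshold of 0.05. The limma trend uses the expected precision of the ratio, a choice made after results were seen. Alternatives were a trend on total reads, other scalings, DESeq2 1.42.0, filters, pseudocounts, an offset test, a replicate block and each library left out. Standard errors of edgeR values were derived from the log2 change and its F statistic. The tests were tried on simulated data.

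Members and lists were chosen with earlier results of these data known. Named were all members, per member the introns with the largest and smallest change among those with at least 20 reads in every library, and up to 4 genes per list and comparison with the smallest p. AP3D1 introns 23, 27 and 28, AP2A1 introns 13 and 18, AP2B1 introns 1, 6, 15 and 16, AP1B1 intron 17, AP1G1 intron 18 and AP3B1 introns 11 and 19 were named after their values were seen. Annotation and sequences are from GENCODE 29 on GRCh38.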

Additional observations from a re-analysis of the deposited data

Results flagged for a closer look

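The difference between the drug effects of J2 RNA and input passed its test for 8 values of 5 members. For intronic reads the difference on the log2 scale was 1.70 ± 0.38 SE for AP1M1 (edgeR adjusted p = 0.000429) and 1.31 ± 0.17 for AP3D1 (edgeR adjusted p = 8.93e-10). For the ratio of intronic to spliced reads it was 1.78 ± 0.37 for AP1M1 (limma adjusted p = 0.00833) and 0.79 ± 0.15 for AP3D1 (limma adjusted p = 0.00581), and neither of these passed with the trend on total reads. For spliced reads it was 0.61 ± 0.22 for AP2B1 (edgeR adjusted p = 0.0408), -0.49 ± 0.08 for AP2M1 (edgeR adjusted p = 0.0013), 1.07 ± 0.25 for AP3B1 (edgeR adjusted p = 0.00583) and 0.52 ± 0.09 for AP3D1 (edgeR adjusted p = 0.000971). With drug alone, AP1M1 intronic reads in J2 RNA against input did not pass (0.14 ± 0.15, edgeR adjusted p = 0.569). Groups of 2 libraries are too small for a test of single outlying libraries, and the J2 drug pair differed most, with a chi-square per gene of 21.8 against 3.43 to 5.82 in the other groups. With a common spread for all groups, p-values that involve this pair may be too small.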

How the results depend on the processing

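Scaling mattered most, since the depth scale keeps the general rise of intronic reads. With TMM, median-of-ratios scaling or DESeq2, the members with higher intronic reads with drug went from 8 to 5 in the input and from 7 to 4 in J2 RNA, with 1 lower in each. In the input the log2 change of AP2B1 became -0.64, -0.77 and -0.77, and with median-of-ratios scaling and DESeq2 that of AP1G1 became -0.090 and -0.090 and that of AP1S1 -0.0028 and -0.0015. In J2 RNA AP2B1 became -0.52, -0.57 and -0.57 and AP2A1 -0.31, -0.36 and -0.36. For spliced reads, DESeq2 left 2 falls of 4 in the input. The 3 scalings gave 1 rise and 3, 2 and 2 falls in the interaction, where AP2A1 became -0.19 with TMM, and 4 higher and 3 lower in J2 against input with vehicle, where AP1M1 became 0.073, 0.13 and 0.13. DESeq2 also left 1 intronic interaction and 1 lower intronic value in J2 with vehicle.

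A minimum of 5 RPM left 21 and 23 introns that rose in input and J2 RNA and 0 that fell in the input. Over all genes it cut the introns tested from 29365 to 9091. Of these, 4526 rose and 292 fell in the input, and 4951 rose and 282 fell in J2 RNA. The same minimum left 1 member each with higher spliced reads in input, higher spliced reads in J2 RNA, and lower intronic reads in J2 with drug. Without a filter, 10 member introns fell in J2 RNA, where 5582 of 112223 introns of all genes fell. With no filter 1 ratio interaction was left and 1 member had higher spliced reads in J2 with vehicle. The offset test, a pseudocount of 5 and the trend on total reads each left 1 intron that fell in the input. The offset test gave 43 intron rises in J2 RNA and 1 negative ratio interaction (AP1B1), and the trend on total reads left 0 positive ones. Over all genes that trend took the ratio interactions from 443 higher and 376 lower to 131 and 82. Without introns that overlap another gene's exon, CLTB had a change of 0 in the input, AP1B1 -0.50 in J2 against input with drug, 1 member rose in spliced J2 reads, and 0 had higher intronic reads in J2 with vehicle. The cause of these shifts was not tested.

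Leaving out 1 library at a time gave 1 to 2 introns that fell in the input, 1 to 2 members with higher spliced reads in the input and 1 to 3 in J2 RNA, 1 to 2 ratio interactions, 1 to 2 lower intronic values in J2 with drug, and 0 to 2 higher spliced values in J2 with vehicle. The deviations of same-numbered replicates had correlations from -0.049 to 0.249, the highest between J2 and input with vehicle. These values cannot settle whether same-numbered libraries were paired, and the main fits treated them as unpaired. With a replicate block, higher spliced values in J2 with vehicle went from 2 to 1 (AP3D1 adjusted p = 0.0564), and no other count of members moved by over 1.5 times. Of the values of single genes, 997 kept their call, or the lack of one, under the other settings. In the same direction 37 lost and 12 gained a call, and 19 changed direction with a call in at least 1 of the 2 settings. Changes of direction without a call in either setting are counted among the 997. Introns with few reads, most of those of AP3B1, AP2B1 and AP1G1, limit what can be said of their single introns.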
